A study of Ovis aries with 18 samples.

Results

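MicroRNAs known mainly from white and red blood cells were followed in extracellular vesicles of the sheep uterine lumen. The set comprised every row of the vesicle and endometrium tables whose own name, or the miRNA listed as sharing its seed, was miR-150, miR-155, miR-342, miR-142, miR-223, miR-146a, miR-486, miR-451 or miR-144, by number. The seed is the short 5′ stretch of a miRNA that selects its targets. This rule took 5 of 495 rows in vesicles and 6 of 761 in endometrium, and 5 rows were in both tables. Of these 9 miRNAs, 4 (miR-223, miR-146a, miR-451 and miR-144) had no row in either table. Their reads may stand under another name with that seed, so this does not show that they were missing from the samples.

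The vesicle groups were ewes given progesterone with the receptor antagonist RU486 (P4+RU486, 4 libraries) and ewes given progesterone alone (P4, 4 libraries). All ewes were ovariectomized and received 50 mg of progesterone a day for 14 days, and P4+RU486 ewes received 50 mg of RU486 a day as well from day 8 to day 14. Vesicles came from uterine flushes passed through a 0.22 µm filter and separated by size exclusion. Endometrium of 5 ewes per treatment is represented here only by the authors' own comparison. Libraries are called R01 to R04 (P4+RU486) and P01 to P04 (P4), because the columns show the treatment by its initial letter and not the ewe.

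Blood cells of different lineages carry different miRNAs, as is known mostly from human and mouse. miR-150 is abundant in mature lymphocytes and restrains the transcription factor MYB, miR-155 is induced when lymphocytes and macrophages are activated, and miR-142 is made in nearly all blood lineages and in few other cells. miR-342 lies in an intron of EVL and is found in lymphoid and myeloid cells. miR-223 marks neutrophils and monocytes, and miR-146a dampens inflammatory signalling. miR-486, encoded in the ankyrin gene ANK1, and the paired miR-144 and miR-451 are abundant in red cells and their precursors, and miR-486 is also made in muscle.

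Only miR-150 carried a sheep miRNA name. The other 4 vesicle rows are predicted loci listed with a seed: 26_23579 with that of miR-486, 18_13295 with that of miR-342, 1_2861 with that of miR-155 and 11_5329 with that of miR-142b. Different miRNAs can share a seed, and these rows are therefore called by their identifiers.

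Values are the authors' normalized CPM, that is, reads scaled as CPM to a library size that the authors adjusted. The libraries held 97202 to 1062646 reads in listed rows, and 3 of them (P01, P04 and R04) had 101186 or fewer. Along the first principal component of the 229 tested rows P01 stood apart, with a score of 16.7 where the other libraries lay between -10.6 and 5.41. Values without P01, and without the 3 shallowest libraries, are given beside each row.

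The blood-cell rows together took 0.616% ± 0.168 of the reads in P4+RU486 and 1.11% ± 0.979 in P4 (SD, n = 4 each). The leukocyte rows (miR-150, 18_13295, 1_2861 and 11_5329) held 0.303% ± 0.130 in P4+RU486 and 0.790% ± 0.781 in P4. Without P01 the P4 means were 0.407% ± 0.18 for the leukocyte rows and 0.689% ± 0.593 for all 5 rows (SD, n = 3). The erythroid row 26_23579 held 0.313% ± 0.177 in P4+RU486 and 0.325% ± 0.369 in P4, where the mean was 0.169% without P04. Without the 3 shallowest libraries it held 0.359% in P4+RU486 and 0.0286% in P4. The shares ranged most widely among the P4 libraries. For leukocyte rows the P4+RU486 libraries lay between 0.216% and 0.495%, while among P4 libraries P01 had 1.94% of its reads there (95% Wilson interval 1.86 to 2.03) and P03 had 0.215% (0.206 to 0.224). These intervals cover counting error only. In bulk vesicle RNA, fewer vesicles from a cell type and less of a miRNA per vesicle cannot be told apart.

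**Figure D1:**
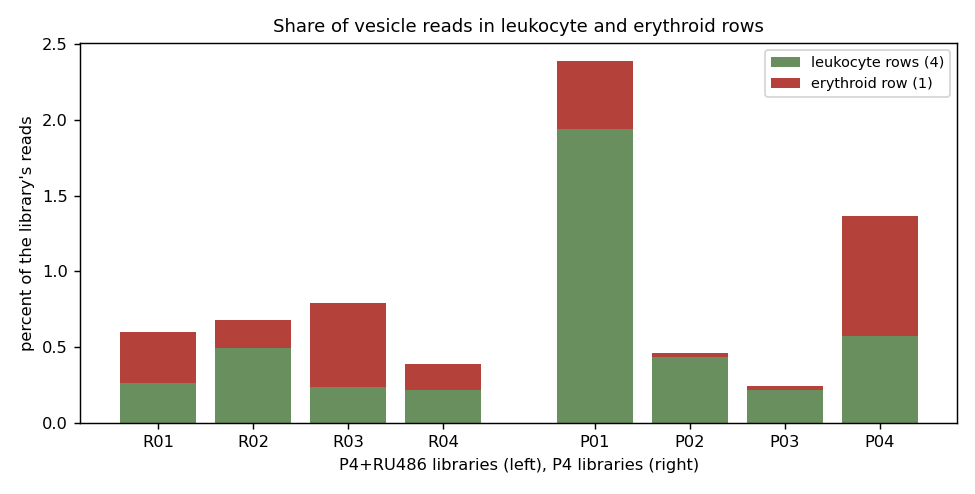
Percent of each vesicle library's reads in the 4 leukocyte rows (green) and the erythroid row 26_23579 (red), 1 stacked bar per library, with P4+RU486 libraries left of P4 libraries. P01 (2.39% in all) and P04 (1.36%) stand above the other 6 libraries, which lie between 0.246% and 0.790%.

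The balance of the leukocyte rows and the single erythroid row also differed from library to library. Most leukocyte reads were miR-150, from 140 of 219 in R04 to 1738 of 1886 in P01. The ratio of leukocyte to erythroid reads was 0.770 in R01, 2.68 in R02, 0.430 in R03 and 1.24 in R04, against 4.31 in P01, 16.5 in P02, 6.93 in P03 and 0.723 in P04. Leukocyte reads thus outnumbered erythroid reads in R02, R04, P01, P02 and P03, and the treatments overlapped. The high ratios of P02 and P03 went with a low erythroid row, and that of P01 with a high miR-150.

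miR-150, the lymphocyte miRNA, had the highest mean of the set over the 8 libraries and ranked 33 among the 495 vesicle rows by it. Without P01 it ranked 44, at a mean of 2701 normalized CPM, below 26_23579 at 2966. Its level was 1837 normalized CPM in R01, 4318 in R02, 1511 in R03 and 1462 in R04, against 13655 in P01, 3812 in P02, 1714 in P03 and 4255 in P04. P01 was 3.16 times as high as the next library, R02, which was close to P02 and P04, and the treatments overlapped. The means were 2282 ± 1367 in P4+RU486 and 5859 ± 5314 in P4 (SD, n = 4 each), so the P4+RU486 mean was 0.389 times that of P4. The log2 difference was -1.11 (SE 0.55, 95% interval -2.30 to 0.08, limma adjusted p = 0.334), which did not pass the threshold of 0.05. Without P01 it was -0.57, and without the 3 shallowest libraries -0.16. These reads are plentiful (140 to 2036 per library), so counting error is small beside the spread between ewes.

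With the miR-486 seed, the erythroid row 26_23579 ranked 41 by mean level over the 8 libraries. It stood at 3579.7 normalized CPM in R01, 1900.5 in R02, 5427 in R03 and 1848 in R04, against 3441 in P01, 281 in P02, 362.6 in P03 and 7365 in P04. The 4 P4+RU486 libraries lay within a 2.94-fold range, whereas the P4 libraries held both the highest value of the 8 and the 2 lowest, a 26.2-fold range. The means were 3189 ± 1695 in P4+RU486 and 2862 ± 3343 in P4 (SD, n = 4 each), a ratio of 1.11, and the log2 difference was 1.18 (SE 0.90, 95% interval -0.77 to 3.13, limma adjusted p = 0.623). On recovered reads it was close to 0, at -0.075 with edgeR and its filter, 0.17 with edgeR without one and 0.055 with DESeq2, so this row has no settled direction. Without P01 the limma difference was 1.66.

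The low values of P02 and P03 rested on 150 and 330 reads and so were not at the limit of detection. In P02 the row took 0.0262% of the reads (95% Wilson interval 0.0224 to 0.0308), and in P04 it took 0.791% (0.737 to 0.849). P02 and P03 were also the 2 deepest libraries, at 571791 and 1062646 reads. Over the 8 libraries, log2 level and log10 depth of this row had a Pearson r of -0.81 (exact permutation p = 0.0163, adjusted over 3 relations 0.0488) and a Spearman rho of -0.64 (exact permutation p = 0.0962, adjusted 0.289). Without P02 and P03, the libraries farthest from the median depth, r was -0.26 (exact permutation p = 0.594, n = 6), so the relation rests on those libraries. Groups of 4 are too small for a correlation within a treatment. For miR-150 the same relation had an r of -0.31 (exact permutation p = 0.457, adjusted 0.685) and a rho of -0.24 (exact permutation p = 0.582, adjusted 0.752), with r at -0.30 without those 2 libraries (exact permutation p = 0.585, n = 6).

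**Figure D2:**
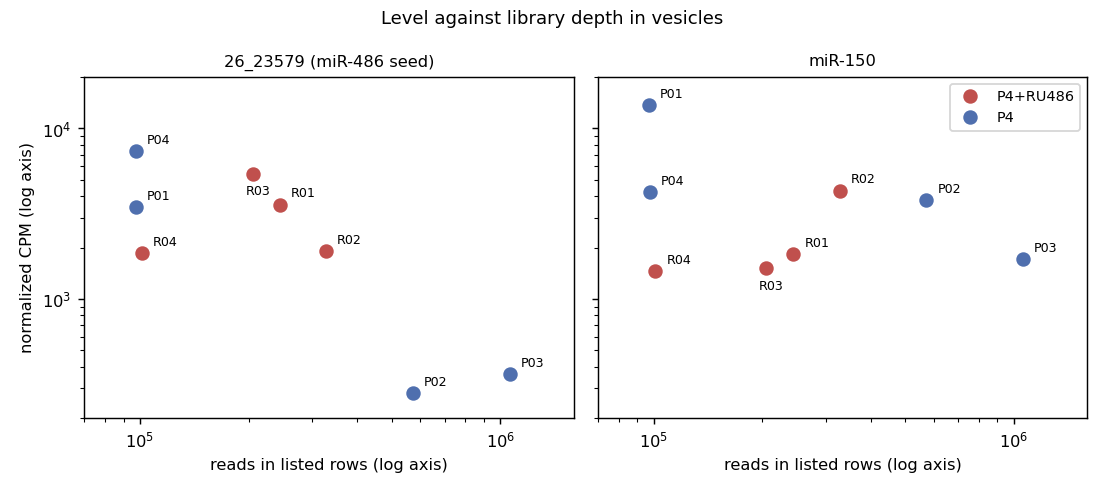
Normalized CPM of 26_23579 (left panel) and miR-150 (right panel) against the reads in listed rows of each vesicle library, both axes on a log scale, with 1 point per library (P4+RU486 red, P4 blue). The lowest 26_23579 values, 281 in P02 and 362.6 in P03, belong to the deepest libraries, and miR-150 was highest in P01, a library of 97202 reads.

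Leaving out P01, P04 and R04, the shallowest libraries, changed the estimate of 26_23579 most. The remaining P4 libraries were P02 and P03, at 281 and 362.6, and all 3 remaining P4+RU486 libraries lay above them. The log2 difference was then 3.38 (limma adjusted p = 0.042), and this row was the only one of 228 past the threshold (0.439% of the rows). With log10 depth as a covariate in all 8 libraries it was 0.71 (limma adjusted p = 0.584). The part of depth in this difference cannot be told apart from that of the treatment, since the deepest libraries are both P4.

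The row 18_13295, with the miR-342 seed, was the steadiest of the set. It stood at 673 normalized CPM in R01, 589 in R02, 689 in R03 and 543 in R04, against 935 in P01, 534 in P02, 595 in P03 and 906 in P04. P01 and P04 were the highest, and the other 6 libraries lay between 534 and 689, with both treatments among them. The means were 623 ± 69.2 in P4+RU486 and 742 ± 208 in P4 (SD, n = 4 each), and the log2 difference was -0.21 (SE 0.29, 95% interval -0.84 to 0.41, limma adjusted p = 0.814). Without P01 it was -0.09, and without the 3 shallowest libraries, P01 and P04 among them, 0.20 (limma adjusted p = 0.71).

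The row 1_2861, with the seed of miR-155, the miRNA of activated immune cells, was lower still. It stood at 159.6 normalized CPM in R01, 128 in R02, 110.0 in R03 and 230 in R04, against 180.7 in P01, 266 in P02, 192.3 in P03 and 162 in P04. R01, R02 and R03 lay below all P4 libraries, while R04 lay above all of them except P02. The means were 157 ± 52.7 in P4+RU486 and 200 ± 45.4 in P4 (SD, n = 4 each), and the log2 difference was -0.38 (SE 0.35, 95% interval -1.15 to 0.38, limma adjusted p = 0.704). It stood at 17 to 175 reads per library, with a median of 30 reads, and the difference was -0.42 without P01 and -0.78 without the 3 shallowest libraries (limma adjusted p = 0.30).

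The row 11_5329, with the seed of miR-142b, was the rarest. It had 20, 19, 5 and 5 reads in R01, R02, R03 and R04, or 86.3, 59.5, 23.9 and 52.2 normalized CPM. In the P4 libraries it had 6, 11, 10 and 0 reads, or 47.1, 20.6, 10.99 and 0 normalized CPM in P01, P02, P03 and P04. R01, R02 and R04 lay above every P4 library, and R03 lay below P01. A count of 0 in P04 allows up to 3 reads there, or 28.6 normalized CPM, which is above the levels in P02 and P03. The means were 55.5 ± 25.6 in P4+RU486 and 19.7 ± 20.1 in P4 (SD, n = 4 each), a ratio of 2.82.

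The fitted log2 difference of 11_5329 was 2.28 (SE 1.03, 95% interval 0.04 to 4.53, limma adjusted p = 0.334, unadjusted 0.047). It is on the scale of log2(value + 1), where the library at 0 weighs heavily: without P04 it was 1.15 (limma adjusted p = 0.530), and with a pseudocount of 5 it was 1.63 (limma adjusted p = 0.281). It was 3.01 without P01 and 1.66 without the 3 shallowest libraries, past the threshold in neither. On recovered reads it was 1.42 with edgeR and its filter (edgeR adjusted p = 0.363) and 1.55 without one (edgeR adjusted p = 0.512). DESeq2 gave 1.51 and no adjusted p. The authors' deposited table lists this row at a fold of -3.69 and an adjusted p of 1.36e-05, a call that edgeR on recovered reads did not give. Positive folds there mean higher in P4, as 261 of the 273 rows with a fold size above 1.5 show, so the authors' value is also higher in P4+RU486.

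**Figure D3:**
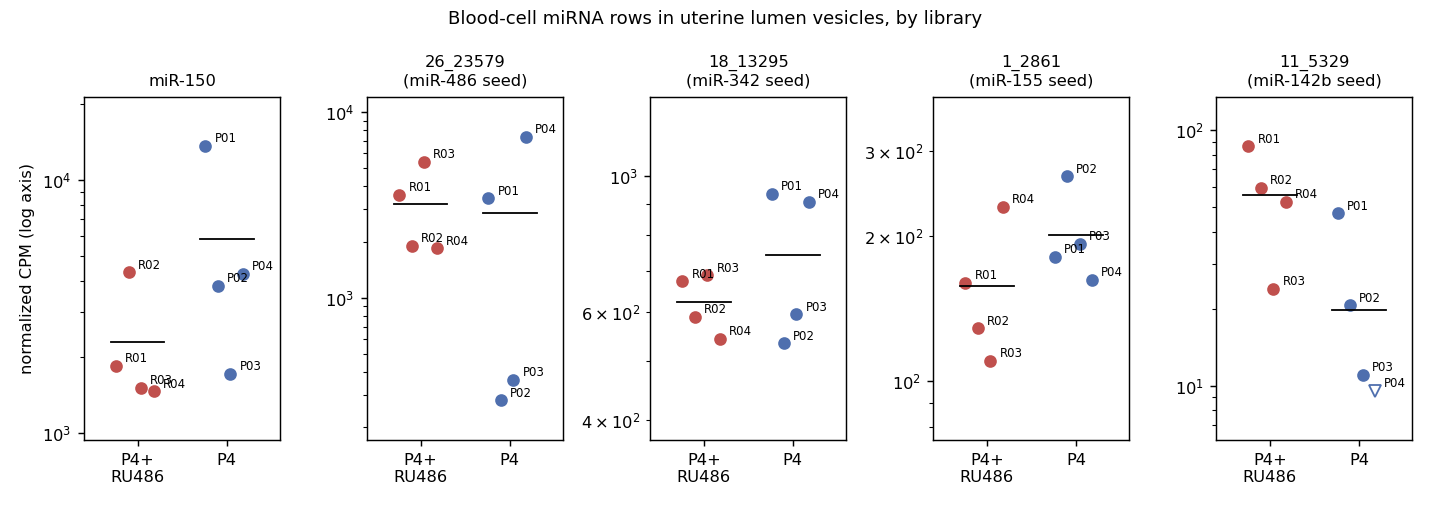
Normalized CPM (log axes, a scale of its own in each panel) of the 5 blood-cell rows in each vesicle library, with P4+RU486 (red) left of P4 (blue) and a line at each group mean. The open triangle marks P04 with 0 reads of 11_5329, drawn at the worth of 1 read (9.54). The treatments overlap in all 5 panels, and 26_23579 falls apart into high and low P4 libraries.

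In none of the 5 rows did the libraries of the 2 treatments stand apart without overlap, where 10.0% of the 229 tested rows did. All 5 rows reached the mean of 10 required for testing, and 0 of 5 passed the limma test, where 0.437% of the tested rows passed. At an unadjusted limma p under 0.05 there was 1 of 5 (11_5329), beside 14.4% of all tested rows. On reads recovered from the deposited values, edgeR's quasi-likelihood test called 0 of 5 with its filter on low counts (0.654% of the 153 rows it kept) and 1 of 5 without a filter (1.21% of 495). The row called was miR-150 (log2 difference -1.35, edgeR adjusted p = 0.0341). DESeq2 called 0 of 5 (1.01% of 495, counting rows to which it gave no adjusted p, 11_5329 among them). Of the 5 rows, 2 were higher and 3 lower in P4+RU486, with a median log2 difference of -0.21 (1 higher and 4 lower with edgeR and its filter, where 26_23579 turned), beside 118 higher and 111 lower of all tested rows with a median of 0.04.

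**Figure D4:**
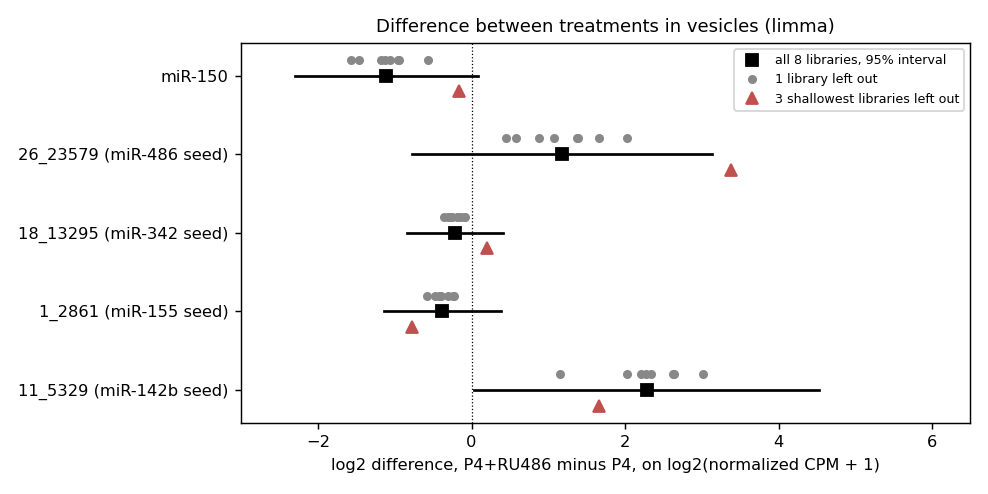
Log2 difference, P4+RU486 minus P4, of each blood-cell row on the scale of log2(normalized CPM + 1), with the limma estimate (square) and its 95% interval (line). Grey points leave out 1 library at a time and red triangles leave out the 3 shallowest, which moves 26_23579 to 3.38 and miR-150 to -0.16.

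Mature miRNAs are of nearly equal length, and the order of rows here is one of normalized CPM. How fully each miRNA is captured in a library was not measured, so it need not be the order of molecules. miR-150 was above 26_23579 in 4 of the 8 libraries, 1 of 4 in P4+RU486 and 3 of 4 in P4, so these rows have no settled order. The row 26_23579 was above 18_13295 in 6 of 8 libraries, all but P02 and P03. 18_13295 was above 1_2861, and 1_2861 above 11_5329, in 8 of 8, with ranges that did not overlap.

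The SD over the 8 libraries, on the log2 scale, was 1.73 for 26_23579 and 1.11 for miR-150, against 0.31 for 18_13295 and 0.41 for 1_2861, while the median of the tested rows was 0.71. Of the 30 tested rows whose mean lay within 2-fold of that of 26_23579, 0 had a larger SD. Of the 27 rows near miR-150, 4 did. By contrast, 31 of the 34 rows near 18_13295 and 29 of the 37 near 1_2861 varied more than they did. The SD of 11_5329 was 2.06, among rows of few reads whose median SD was 1.0. The highest and lowest libraries differed 9.34-fold for miR-150 and 1.75-fold for 18_13295, both of the leukocyte list. Without P01, chosen after seeing the data, these ranges were 2.95-fold and 1.70-fold. The SD of miR-150 was then 0.73, beside a median of 0.64 over the tested rows, so its place among the variable rows rests largely on P01, while 26_23579 had an SD of 1.83 without it.

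**Figure D5:**
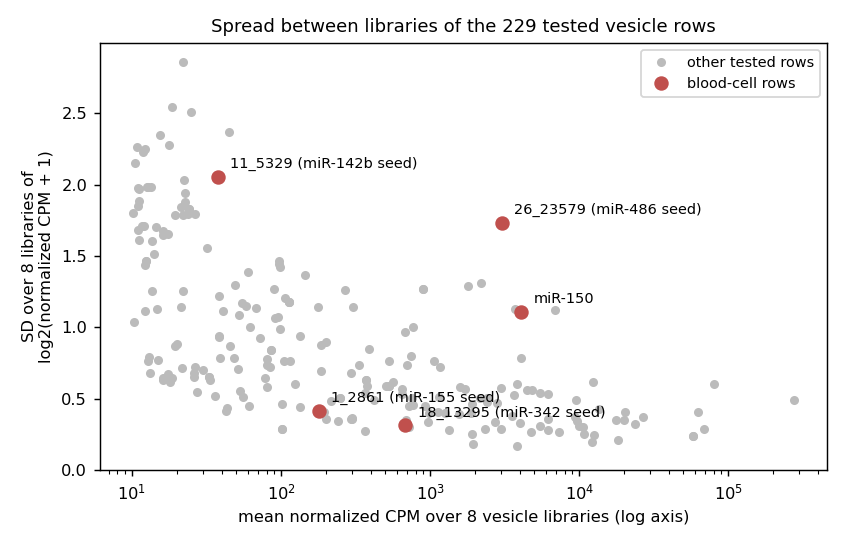
SD over the 8 vesicle libraries of log2(normalized CPM + 1) against mean normalized CPM (log axis) for the 229 tested rows (grey), with the 5 blood-cell rows in red. 26_23579 (1.73) lies above all rows of like level, and 18_13295 (0.31) and 1_2861 (0.41) lie among the steadier ones.

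miR-150 and 26_23579 did not follow each other across libraries. Over the 8 libraries their Pearson r was 0.13 (exact permutation p = 0.764, adjusted over 3 relations 0.764) and Spearman rho was 0.14 (exact permutation p = 0.752, adjusted 0.752). Without P01 and R04, the libraries farthest from the median of miR-150, r was -0.05 (exact permutation p = 0.893, n = 6). As a description, 26_23579 had an r of 0.70 with 18_13295, -0.66 with 1_2861 and -0.14 with 11_5329. Within the leukocyte list, miR-150 had an r of 0.60 with 18_13295 (rho 0.38), 0.08 with 1_2861 and -0.08 with 11_5329. The r of 18_13295 was -0.34 with 1_2861 and -0.42 with 11_5329, and that of 1_2861 with 11_5329 was -0.02. The leukocyte rows thus did not rise and fall together. All rows of a library share its depth and scaling.

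Among the 228 other tested rows, those most like miR-150 were 26_23352 (r = 0.93, rho 0.88, 8 libraries), 2_15211 (r = 0.83) and 1_2631 (r = 0.75), all highest in P01. Without P01 their r with miR-150 was 0.96, 0.69 and 0.37. The first has no listed seed and stood at 163 normalized CPM in P4+RU486 and 372 in P4 on average. 2_15211 and 1_2631 have the seeds of miR-7a-1-3p and miR-190a, and 2_15211 had a median of 3 reads. Those most like 26_23579 were 24_21767 (r = 0.86, rho 0.83), which has no listed seed, 18_13925 with the miR-1247-5p seed (r = 0.86) and 1_1746 with the miR-6980-5p seed (r = 0.85). Like 26_23579, all of these were lowest in P02 and P03, though 18_13925 and 1_1746 had medians of only 4.5 and 9 reads. In P02 and P03 18_13925 stood at 1.87 and 1.1 normalized CPM, the worth of 1 read each. These rows were picked as the most alike of many, so no test is given.

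Other miRNAs abundant in blood cells were read from a list by number. On it, miR-181b, miR-181c, miR-181d, miR-15a, miR-15b, miR-16, miR-16a, miR-92b, miR-185, miR-363 and miR-126 had no vesicle row by number. Of 4 rows with the name or seed of miR-146b or miR-181a, which are found in lymphoid and myeloid cells, 1 was higher and 3 lower in P4+RU486, with a median log2 difference of -0.20. Among them miR-181a averaged 9274 ± 1039 normalized CPM in P4+RU486 and 12103 ± 2580 in P4 (SD, n = 4 each). Of 8 tested rows with names or seeds of miR-16b, miR-25 and miR-92a, which red cells carry in quantity along with many other cells, 1 was higher and 7 lower, with a median of -0.16. 2 of these 8 rows, 10_3805 and X_35741, have identical values and may be 1 signal. miR-25 stood at 10954 ± 593 in P4+RU486 and 13585 ± 1287 in P4 (SD, n = 4 each), with a log2 difference of -0.31. miR-191, abundant in platelets and in many other cells, had a log2 difference of -0.24. 0 of these 13 rows passed the limma test (0.437% of all tested rows did), nor did edgeR or DESeq2 call any, and 1 had an unadjusted limma p under 0.05 (14.4% of all). The row under 0.05, X_35722 with the miR-16b seed, averaged 19.9 ± 12.1 normalized CPM in P4+RU486 and 62.3 ± 42.8 in P4 (SD, n = 4 each). Its log2 difference was -1.54 (limma adjusted p = 0.299). X_35722 is numbered near X_35725 (miR-542-3p seed) and X_35728, X_35730 and X_35732 (miR-450 seeds). It may be another miRNA that shares the miR-16b seed, and whether it is a red-cell miRNA was not tested. Over all tested rows, 118 were higher and 111 lower. On the log2 scale, the SD over the 8 libraries had a median of 0.37 in the lymphoid and myeloid rows and 0.47 in the red-cell rows. The rare rows 22_20322 (miR-146b seed) and 11_5611 (miR-16b seed) had SDs of 1.85 and 1.98, above the 1.73 of 26_23579.

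Markers of other cell types moved between the same libraries. The 5 rows of the epithelial miR-200 family, from 3 of the 5 miRNAs on its list (miR-141 and miR-429 had no row), summed to 10482 to 15999 normalized CPM in P4+RU486 and 7118 to 30229 in P4. Their share was 2.59% in P03 (95% Wilson interval 2.56 to 2.62), where the blood-cell rows held 0.246% (0.237 to 0.256). In P01 it was 0.932% (0.874 to 0.994), where the blood-cell rows held 2.39% (2.30 to 2.49). The smooth muscle rows (miR-143 and a row with the miR-145 seed) summed to 9730 to 14935 in P4+RU486 and 10828 to 16531 in P4. The stromal rows, miR-199a-3p and a row with the miR-214 seed, summed to 136 to 593 in P4+RU486 and 83.5 to 849 in P4, highest in P01. The liver or plasma rows, from 2 of 4 miRNAs, summed to 104 to 138 in P4+RU486 and 154 to 440.0 in P4, without overlap. Taken singly, 10.0% of the 229 tested rows had no overlap. Of the liver or plasma rows, the treatments stood apart in 19_14926, with the miR-885 seed, and overlapped in miR-194. 19_14926 averaged 71.8 ± 15.5 in P4+RU486 and 284 ± 133 in P4, while miR-194 averaged 53.2 ± 12.5 in P4+RU486 and 52.2 ± 27.1 in P4 (SD, n = 4 each). The limma test did not call 19_14926 (adjusted p = 0.109), nor did edgeR with its filter. It was called by edgeR without a filter, by DESeq2 and by limma with log10 depth as a covariate. miR-122 and miR-192 had no row. The part of the other cell types in the differences of the blood-cell rows was not tested.

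In the authors' deposited table for vesicles, 1 of the 5 rows (11_5329) had an adjusted p under 0.05, beside 1.82% of all rows. The folds of the other 4 in the authors' deposited table were 2.03 for miR-150, 1.3 for 1_2861 and 1.19 for 18_13295, all higher in P4, and -1.65 for 26_23579, with adjusted p-values of 0.88 to 0.96.

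In the authors' deposited table for endometrium, 0 of 6 rows had an adjusted p under 0.05, beside 1.18% of all rows. The authors do not name the numerator of these folds, so they are given as signed: 1.13 for miR-150, 1.13 for 26_23579, 1.08 for 18_13295, -1.24 for 1_2861 and -1.11 for 11_5329. The 6th row, 19_14928, is listed in endometrium alone, at a fold of 1.46. It has the seed of miR-155-3p, a miRNA from the opposite arm of the miR-155 hairpin. Its identifier is numbered near 19_14926 (miR-885 seed) and not near 1_2861, so 19_14928 and 1_2861 are not taken as arms of the same hairpin. Whether 19_14928 is a miR-155 product was not tested. Adjusted p-values in the authors' deposited table ran from 0.575 to 0.985. The median fold size of the 6 rows was 1.13, beside 1.25 over the 761 endometrium rows, and that of the 5 vesicle rows was 1.65, beside 1.63 over the 495 vesicle rows. Levels in vesicles and endometrium were normalized in separate tables and were not compared.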

How the data were processed

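Small RNA libraries were sequenced from uterine lumen vesicles (4 ewes per treatment) and endometrium (5 per treatment). Adapters were trimmed with cutadapt 1.11, the genome build was Oar_v3.1 and edgeR was used, per the submitters' processing notes. No aligner, locus predictor or read filter is named in the sources used here. The authors deposited a normalized signal for vesicles, CPM on a library size that they adjusted, as the values show. Within each column 100% of values came out as whole reads (tolerance 0.1 read) once divided by the worth of 1 read, and these reads were used in the count tests. CPM computed from them with TMM factors differed from the deposited values by at most 0.00499. Per the file headers, the authors deposited a signed fold change (a score) and an adjusted p-value beside the values. The endometrium table's 10 columns per library could not be matched to a label by name. They were left out, so the planned endometrium test was not run.

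Vesicles were tested with limma 3.58.1 (trend, R 4.3.3) on log2(value + 1), using the 229 rows whose mean reached 10, with Benjamini-Hochberg adjustment over all of them and a threshold of 0.05. Alternatives used edgeR 4.0.16 and DESeq2 1.42.0 on recovered reads, other pseudocounts (0.5 and 5), filters, scalings, a depth covariate and left-out libraries. The limma, edgeR and DESeq2 steps were run on simulated reads with large changes and the same spread setting for all rows. Only limma had a pass mark there. The simulation does not show how the tests perform on rows that vary as much as 26_23579. Correlations used exact permutation over pairings (2-sided). All member rows were named, and the rows most like miR-150 and 26_23579 were the 3 with the highest r. The members and all lists were chosen with earlier results of these data known. Ewes differ between treatments, so the libraries of a group are separate animals.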

Additional observations from a re-analysis of the deposited data

Results flagged for a closer look

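In P4+RU486, R02 stood apart for miR-150, at 4318 normalized CPM where the other 3 libraries lay between 1462 and 1837. Its distance to the nearest of them was 0.869 of the range of the group, past Dixon's 95% critical value for 4 libraries. The check used normalized CPM and percent of reads as they stand. It was not made on the log2 scale of the limma test, so the flag holds for the unlogged scale alone. The leukocyte rows, of which miR-150 is the largest, were flagged with it, at 0.495% of the reads in R02 and 0.216% to 0.261% in the others. In P4 the high miR-150 value of P01 reached 0.787 of the range, under that value. For normally distributed values, chance marks about 1 in 20 such groups, and 16 were checked, many of them sharing rows.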

How the results depend on the processing

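The number of vesicle rows past the threshold was 1 in limma, 6 with edgeR without a filter, 5 with DESeq2, 6 with log10 depth as a covariate and 0 to 2 with 1 library left out (0 without R01, R03, R04 or P04, and 2 without P02). miR-150 passed with edgeR without a filter (-1.35, adjusted p = 0.0341) and in no other alternative, where its limma, edgeR and DESeq2 estimates lay between -1.64 and -0.16. Without 1 library, limma gave -1.56 to -0.57. 26_23579 passed without the 3 shallowest libraries (3.38, limma adjusted p = 0.042), turned to -0.075 with edgeR and its filter (adjusted p = 0.969), and ranged from 0.46 to 2.02 with 1 library left out. Without the 3 shallowest libraries 18_13295 turned to 0.20 (limma adjusted p = 0.71). With 1 library left out, it ranged from -0.36 to -0.09, 1_2861 from -0.58 to -0.23 and 11_5329 from 1.15 to 3.01, none past the threshold. At a minimum mean of 50, 11_5329 had no value, and DESeq2 gave it no adjusted p. The correlation of miR-150 with 26_23579 turned to -0.045 without the 2 farthest libraries, and lay between -0.049 and 0.29 with 1 library left out. The cause of these changes was not tested. Matching by the rows' own names alone left miR-150 only, at 0.222% of the reads in P4+RU486 and 0.687% in P4, and no erythroid row. Leaving out libraries for the shares was chosen after seeing the data: with 1 left out, leukocyte means ran from 0.239% to 0.331% in P4+RU486 and 0.407% to 0.982% in P4. The other scalings changed the direction of none of the 5 rows. No paired analysis was possible because treatments were given to different ewes and the column numbers name no ewe. 11_5329 is limited by depth, at a median of 8 reads per library.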
